A study of Saccharomyces cerevisiae with 24 samples.

Results

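The cyclins and cell cycle inhibitors of budding yeast are described here from 10 loci chosen by name: the G1 cyclin genes CLN1 (YMR199W), CLN2 (YPL256C), CLN3 (YAL040C) and PCL1 (YNL289W), the B-type cyclin genes CLB1 (YGR108W), CLB2 (YPR119W), CLB5 (YPR120C) and CLB6 (YGR109C), and the inhibitor genes SIC1 (YLR079W) and WHI5 (YOR083W). Of these 10, 8 were among the 4442 gene pairs counted, and CLB2 and CLB5 were not analysed here. Messenger RNA was sequenced from 12 libraries of a hybrid and 12 libraries of a co-culture, and reads over sites that differ between the strains BY and RM were counted separately for each allele. The hybrid (strain WL201) is an a/alpha diploid cross of BY4741, a laboratory strain, and RM11-1alpha, of vineyard origin. In the co-culture, haploid cells of BY4741 and of RM11-1a, all of mating type a, grew in 1 flask. Both kinds of culture were started at an OD600 of 0.1 and harvested at 1 (30 °C, 250 rpm), with 4 technical-replicate cultures each. The labels name no treatment and no further allele of either strain. The comparison of alleles asks how far a difference between strains persists when both genomes share 1 nucleus (cis) or is found in the separate haploid cells alone (trans).

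Cyclins bind and activate a cyclin-dependent kinase, in yeast mainly Cdc28, and give it its timing and targets. In G1, Cln3 with Cdc28 acts against Whi5, an inhibitor of the transcription factor SBF; SBF and its relative MBF then switch on CLN1, CLN2, PCL1, CLB5, CLB6 and many genes of DNA replication and budding. Sic1 holds the S-phase kinase (Clb5 and Clb6 with Cdc28) inactive until Cln kinases mark it for destruction, and Clb1 and Clb2 drive mitosis. Pcl1 is a G1 cyclin of a different kinase, Pho85. Cell size at the start of the cycle is known to depend on the dose of Cln3 and Whi5 and differs between haploid and diploid cells.

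The upstream regions show which of these genes carry the letters that SBF, MBF and Mcm1 are known to bind. They were read from the RefSeq R64 genome over the 1200 bases before each start codon, on both strands. The letters searched were CNCGAAA (the SCB core bound by SBF), ACGCGT (the MCB bound by MBF) and a loose form of the early cell cycle box (ECB, bound by Mcm1), which is TTNCC followed by any 3 bases, a T, any 2 bases and GGAAA. Of 5996 genes, 38.2% held at least 1 SCB-like match, 9.26% an MCB match and 1.52% an ECB-like match. The clusters of matches in 5 genes are printed 5′ to 3′ on the gene's strand, with the matches in capitals. They lie at chrXIII:662182-662225 (plus strand, CLN1), chrXVI:67136-67250 (minus strand, CLN2), chrI:68400-68487 (minus strand, CLN3), chrVII:706863-706914 (minus strand, CLB6) and chrXIV:87526-87648 (plus strand, PCL1).
CLN1: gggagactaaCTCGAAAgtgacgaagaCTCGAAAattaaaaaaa
CLN2: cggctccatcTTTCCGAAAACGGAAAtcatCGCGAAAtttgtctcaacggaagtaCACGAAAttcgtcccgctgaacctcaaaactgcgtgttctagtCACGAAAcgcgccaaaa
CLN3: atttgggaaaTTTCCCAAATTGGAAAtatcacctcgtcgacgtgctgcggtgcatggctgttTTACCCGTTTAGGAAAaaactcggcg
CLB6: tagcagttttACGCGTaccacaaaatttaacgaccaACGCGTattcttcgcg
PCL1: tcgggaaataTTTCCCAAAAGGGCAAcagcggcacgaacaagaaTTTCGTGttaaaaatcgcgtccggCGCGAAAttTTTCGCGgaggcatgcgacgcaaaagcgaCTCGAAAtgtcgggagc

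The G1 cyclin genes under SBF held several SCB-like matches: CLN1 had 3, CLN2 had 4 and PCL1 had 4, where 8.84% of all genes had at least 2. CLB6 had 2 MCB matches, where 1.08% of genes had at least 2, and CLN1 had 1. CLN3 had no SCB-like or MCB match but 2 ECB-like ones, a count reached by 0.15% of genes, and CLN2 and PCL1 had 1 each. CLB1 and SIC1 had 1 SCB-like match each, that of SIC1 directly against its start codon (bases 7 to 1 before it). None of the 3 strings was found upstream of WHI5. These matches describe the reference strain's letters only.

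**Figure D1:**
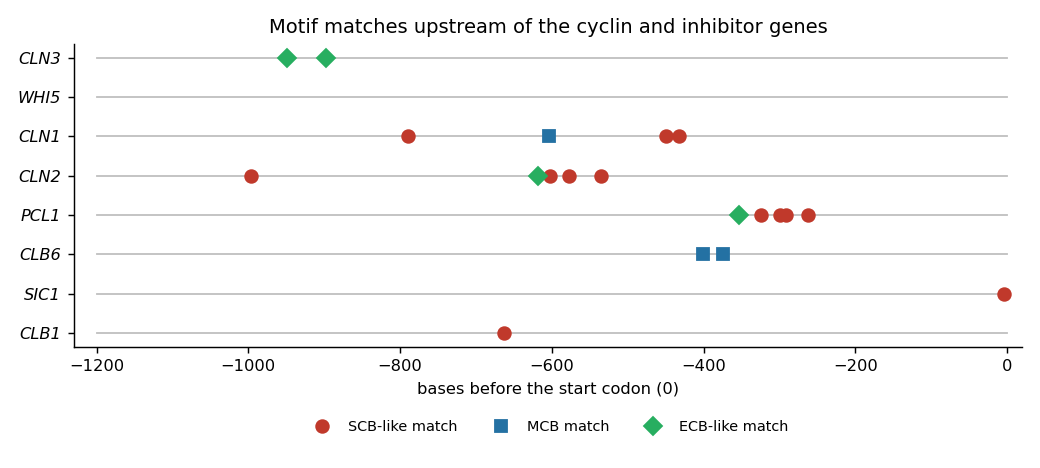
Positions of the SCB-like, MCB and ECB-like matches (symbols) in the 1200 bases before the start codon of 8 genes, with distance in bases on the horizontal axis. All but 1 of the CLN2 matches lie in the window of 115 bases printed above and all PCL1 matches in one of 123 bases, the CLN3 pair lies near the far end of its region, and the WHI5 line is empty.

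The hybrid libraries held 165503 to 232428 reads and the co-culture libraries 199838 to 227175, of which 50.09 to 50.52% and 44.96 to 45.35% were BY reads. Libraries were summed into sets whose counts agreed within sampling noise in every pair of the set, which gave 8 summed replicates of the hybrid and 4 of the co-culture; the 8 outnumber the 4 cultures, so p-values measure a spread that may be technical. Of 6 listed genes, the 4 counted that are specific to mating type a summed to between 92.4 and 163 CPM (reads relative to the TMM-scaled depth of their library) in the hybrid, against 10400 to 10900 CPM in the co-culture, in accord with the labels. The haploid-specific genes GPA1, STE4, STE18, FUS3 and RME1, of which 4 were counted, summed to 4.87 to 23.8 CPM in the hybrid, against 447 to 511 CPM in the co-culture. Alpha-specific genes (2 of 4 counted) summed to 4.76 to 14.8 CPM in the hybrid, against 4.95 to 13.7 CPM in the co-culture, and meiosis genes (4 of 6 counted) to 26.1 to 50.8 CPM in the hybrid, against 33.3 to 51.2 CPM in the co-culture. None of these markers was at 0 over a whole group. Ploidy, mating type and the joining of both genomes differ together between the groups and cannot be told apart. Fewer cells in a phase of the cycle and less RNA per cell cannot be told apart either. Levels are reads over variant sites, whose number per gene is not given, so no level is compared between genes.

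Added over both alleles, 2 of 6 tested cyclin and inhibitor genes passed between hybrid and co-culture. SIC1 rose and CLN2 fell in the hybrid, and CLN1, CLN3, CLB1 and PCL1 did not pass the test. Over all 2793 gene pairs tested, 60.4% passed (29.4% higher and 31% lower in the hybrid), so 2 of 6 is below the background. The members' median log2 fold was 0.08, beside 0.02 over all gene pairs. The values of hybrid and co-culture did not overlap in 0 of the 6, where the background was 32.3%. All folds in this comparison are hybrid over co-culture, tested with edgeR's quasi-likelihood test and adjusted by the Benjamini-Hochberg method over all gene pairs.

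**Figure D2:**
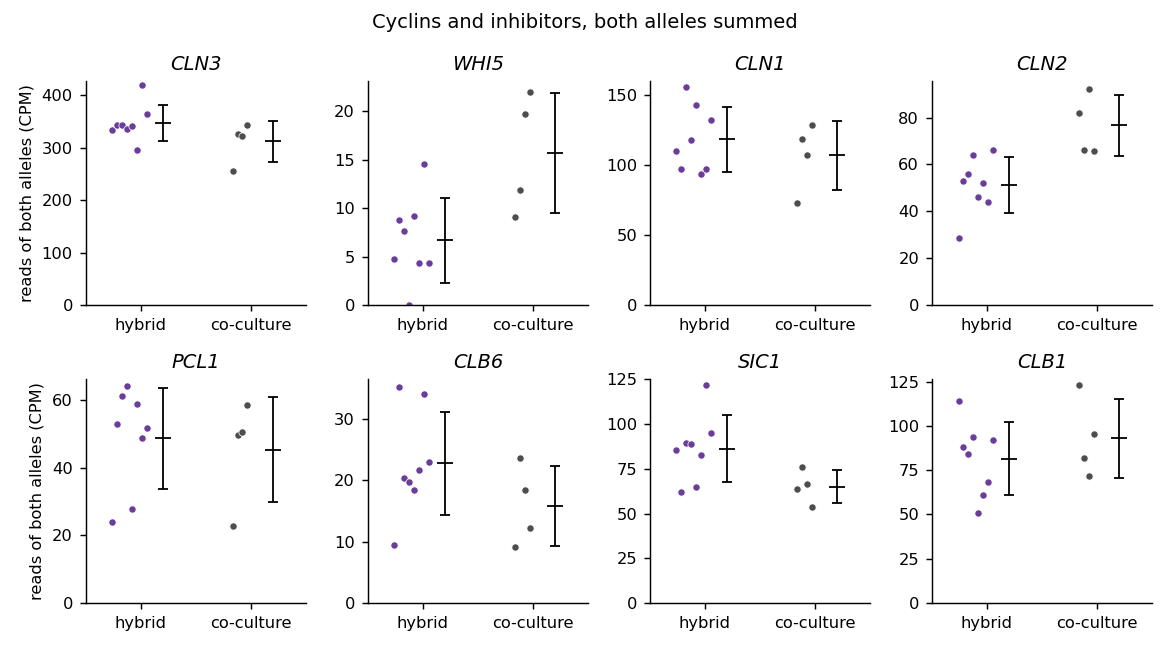
Reads of both alleles (CPM, vertical axes from 0) for 8 genes in 8 hybrid and 4 co-culture summed replicates (points), with the mean and SD beside them (bars). The CLN2 points sit lower in the hybrid (28.6 to 66.1 CPM) than in the co-culture (65.9 to 92.4 CPM), while those of CLN3, CLN1, CLB1 and PCL1 share 1 range.

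CLN3, the gene of the most upstream G1 cyclin, had a similar sum in both kinds of culture but a different make-up by allele. In total it had 296, 343 and 419 CPM (lowest, median, highest of 8) in the hybrid, against 255, 326, 323 and 344 CPM in the 4 co-culture replicates, and the ranges overlap. The mean was 347 ± 34.8 CPM in the hybrid, against 312 ± 39.0 CPM in the co-culture (SD, n = 8 and 4). The log2 fold of 0.10 (SE 0.08, 95% interval −0.05 to 0.26, adjusted p = 0.246) did not pass. It passed at 0.20 (adjusted p = 0.0174) without TMM scaling, where the median of all gene pairs moved by 0.10, and at 0.40 (adjusted p = 3.88e-06) once the trend of folds on the A content of the coding sequence was removed.

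The alleles of CLN3 were even in the hybrid and uneven between the haploids. In the hybrid, 452 RM and 448 BY reads were counted, an RM share of 50.2% (exact Clopper-Pearson 95% interval 46.9 to 53.5), whereas the co-culture had 553 RM and 236 BY reads, a share of 70.1% (66.8 to 73.3). These intervals cover counting error only. The fit of the ratios, given further on, had a dispersion of 9.77e-05 over allele columns. Its SEs and p-values therefore reflect mainly counting error and not the spread between cultures. The shares here and for the other genes are not scaled for the strain mix. Of all reads, 44.96 to 45.35% were BY in the co-culture, against 50.09 to 50.52% in the hybrid. Scaled to each allele's own total, the RM allele in the hybrid had 275, 340 and 459 CPM (lowest, median, highest), and the BY allele 295, 352 and 377 CPM. In the co-culture the RM allele had 368, 430, 425 and 495 CPM, and the BY allele 127, 225, 222 and 184 CPM. RM exceeded BY in 4 of 8 hybrid replicates and in 4 of 4 co-culture replicates, with no overlap in the co-culture.

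The log2 ratio of RM over BY was 0.01 in the hybrid (SE 0.10, interval −0.18 to 0.20, adjusted p = 0.975) and 1.06 in the co-culture (SE 0.11, interval 0.84 to 1.27, adjusted p = 5.02e-21), a 2.08-fold excess of RM. The difference of the ratios itself, co-culture minus hybrid, was 1.05 (SE 0.15, interval 0.76 to 1.34, adjusted p = 2.09e-11). It was called under all 18 alternatives tried, at 0.92 to 1.14. CLN3 was also the one member in which the hybrid and co-culture ratios did not overlap between replicates.

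Set against the same allele in its haploid strain, the BY allele of CLN3 was higher in the hybrid and the RM allele lower. The BY allele averaged 343 ± 28.5 CPM in the hybrid, against 189 ± 45.9 CPM in the co-culture (SD, n = 8 and 4), and no hybrid replicate reached down to the highest co-culture one. Its log2 fold was 0.73 (SE 0.11, interval 0.51 to 0.96, adjusted p = 1.06e-07), or 1.66-fold. The RM allele averaged 347 ± 58.1 CPM in the hybrid, against 429 ± 51.8 CPM in the co-culture, with overlapping ranges and a log2 fold of −0.31 (SE 0.10, interval −0.50 to −0.11, adjusted p = 0.00642).

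The call on the CLN3 RM allele changed with the scaling, while that on the BY allele held under all 20 alternatives (0.68 to 1.00). Without TMM scaling, where the median of all gene pairs moved by 0.17, the RM fold was −0.14 (adjusted p = 0.221), and with DESeq2 −0.26 (adjusted p = 0.0732). With the A-content trend removed it was 0.01 (adjusted p = 0.94), and the BY fold 1.00 (adjusted p = 1.96e-11). A makes up 28.9% of the CLN3 coding sequence, beside a median of 32.6% over tested genes. Across 2780 genes the Spearman correlation of the total fold with that share was 0.553, a description across genes, which share the same libraries.

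**Figure D3:**
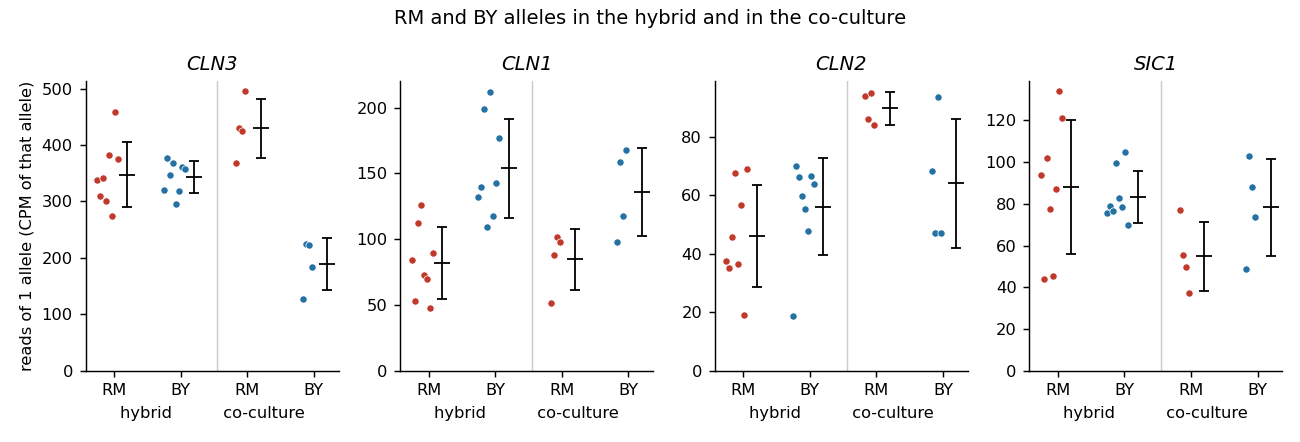
Levels of the RM (red) and BY (blue) alleles of CLN3, CLN1, CLN2 and SIC1 in the hybrid (left of each panel, 8 summed replicates) and the co-culture (right, 4), in CPM of that allele on axes from 0, with mean and SD. The CLN3 alleles cover 1 range in the hybrid, whereas in the co-culture every RM point is above every BY point.

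WHI5, whose product Cln3 works against, was too sparse to be tested. It had 16 reads over the 12 hybrid libraries, 5 of BY and 11 of RM, against 39 over the 12 co-culture libraries, 20 of BY and 19 of RM, and 2 hybrid libraries had none. By replicate it had 0, 6.21 and 14.6 CPM (lowest, median, highest) in the hybrid, against 9.12, 11.9, 19.7 and 22.0 CPM in the co-culture. The lower co-culture values lie within the hybrid range; the 0 is that of a replicate in which 3 reads would be worth 14.8 CPM.

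Scaled for depth, the WHI5 ratio of hybrid over co-culture was 0.386, with an exact counting interval of 0.201 to 0.706. A fit without the read minimum gave a log2 fold of −1.33 (SE 0.42, interval −2.16 to −0.50, adjusted p = 0.00515). In that fit the BY allele had −2.03 (SE 0.63, adjusted p = 0.00546) and the RM allele −0.76 (SE 0.55, interval −1.84 to 0.31, adjusted p = 0.307). The RM share of 68.8% (41.3 to 89.0) in the hybrid, against 48.7% (32.4 to 65.2) in the co-culture, leaves the allele ratio unresolved at this depth.

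CLN1, 1 of the cyclin genes that SBF switches on at the start of the cycle, had less RM than BY transcript in both kinds of culture. The RM allele had 47.8, 78.6 and 126 CPM (lowest, median, highest) in the hybrid, and the BY allele 109, 141 and 212 CPM there. In the co-culture the RM allele had 51.3, 88.0, 102 and 98.0 CPM, and the BY allele 97.5, 159, 118 and 168 CPM. RM was the lower allele in 7 of 8 hybrid and 4 of 4 co-culture replicates.

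The log2 ratio of RM over BY for CLN1 was −0.91 in the hybrid (SE 0.17, interval −1.23 to −0.58, adjusted p = 8.32e-07), a 1.88-fold excess of BY, and −0.63 in the co-culture (SE 0.17, interval −0.97 to −0.29, adjusted p = 0.0012). The difference of the ratios was 0.28 (co-culture minus hybrid, SE 0.24, interval −0.20 to 0.75, adjusted p = 0.465), which did not pass. Without co-culture replicate 2 the co-culture ratio was −0.47 (adjusted p = 0.107). In total CLN1 had 93.5, 114 and 156 CPM (lowest, median, highest) in the hybrid, against 72.9, 119, 107 and 129 CPM in the co-culture, which overlap. It averaged 118 ± 23.2 CPM in the hybrid, against 107 ± 24.5 CPM in the co-culture, a log2 fold of 0.11 (SE 0.13, interval −0.15 to 0.37, adjusted p = 0.493).

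CLN2, the paralog of CLN1, was lower in the hybrid. Its total was 28.6, 52.6 and 66.1 CPM (lowest, median, highest) in the hybrid, against 82.0, 66.3, 92.4 and 65.9 CPM in the co-culture, and the highest hybrid replicate just passes the lowest co-culture one. The log2 fold was −0.49 (SE 0.17, interval −0.83 to −0.16, adjusted p = 0.00902), or 1.41-fold lower. Without co-culture replicate 3 it was −0.34 (adjusted p = 0.134).

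The RM allele of CLN2 had 19.1, 41.7 and 69.2 CPM (lowest, median, highest) in the hybrid and 94.1, 86.1, 94.9 and 84.0 CPM in the co-culture, with no overlap. Of all RM alleles tested, 30.1% did not overlap. The BY allele had 18.9, 61.8 and 70.1 CPM in the hybrid and 68.2, 47.2, 93.6 and 47.3 CPM in the co-culture, which overlap. Neither allele reached the minimum of 10 reads per library, so the folds come from the fit without it: −0.78 for RM (SE 0.23, interval −1.22 to −0.33, adjusted p = 0.00272) and −0.16 for BY (SE 0.25, interval −0.64 to 0.33, adjusted p = 0.68).

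Between the alleles, CLN2 had an RM share of 47.2% (38.8 to 55.7) in the hybrid, against 61.0% (53.6 to 68.0) in the co-culture. Part of this gap is the strain mix, since only 44.96 to 45.35% of all co-culture reads were BY. The ratios that follow are scaled for it. The log2 ratio of RM over BY was −0.17 in the hybrid (SE 0.25, adjusted p = 0.705) and 0.47 in the co-culture (SE 0.22, interval 0.04 to 0.89, adjusted p = 0.0727). RM was higher in 4 of 4 co-culture replicates, yet the ratio did not pass, and without co-culture replicate 3 it was 0.77 (adjusted p = 0.0247). The difference of the ratios, 0.64 (co-culture minus hybrid, SE 0.33, interval −0.01 to 1.28, adjusted p = 0.166), did not pass. How reads that match both CLN1 and CLN2, or both CLB1 and CLB2, were assigned is not stated, and values of these paralogs are uncertain to that extent.

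Of the other SBF and MBF targets counted among the members, PCL1 passed no test and CLB6 was too sparse to be tested. PCL1 had 23.8, 52.4 and 64.2 CPM (lowest, median, highest) in the hybrid, against 22.8, 49.5, 50.5 and 58.6 CPM in the co-culture, which cover the same range. Its log2 fold was 0.06 (SE 0.20, interval −0.33 to 0.45, adjusted p = 0.804). Its RM allele spanned 27.3 to 88.2 CPM and its BY allele 17.5 to 66.3 CPM in the hybrid, against 25.7 to 49.8 CPM for RM and 19.5 to 78.8 CPM for BY in the co-culture. RM was higher in 4 of 8 hybrid and 1 of 4 co-culture replicates. The log2 ratio of RM over BY was 0.19 in the hybrid (SE 0.25, interval −0.31 to 0.68) and −0.50 in the co-culture (SE 0.27, interval −1.02 to 0.02, adjusted p = 0.122), and their difference −0.69 (co-culture minus hybrid, SE 0.37, interval −1.41 to 0.03, adjusted p = 0.18).

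CLB6, a cyclin gene of S phase with the pair of MCB matches above, had 59 reads in the hybrid libraries and 46 in those of the co-culture, under the minimum. By replicate it had 9.52, 21.1 and 35.3 CPM (lowest, median, highest) in the hybrid and 9.12, 23.7, 18.5 and 12.2 CPM in the co-culture. The ranges overlap, and the fit without the minimum gave a log2 fold of 0.27 (SE 0.29, interval −0.30 to 0.84, adjusted p = 0.49). Its RM share was 44.1% (31.2 to 57.6) in the hybrid, against 63.0% (47.5 to 76.8) in the co-culture, with wide intervals on few reads. The BY allele, with 33 hybrid and 17 co-culture reads, spanned 17.5 to 38.0 CPM in the hybrid, against 0 to 17.2 CPM in the co-culture. These ranges only just fail to overlap, and 31.5% of all BY alleles tested did not overlap. The fit without the minimum gave 0.74 (SE 0.44, interval −0.12 to 1.61, adjusted p = 0.189).

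SIC1, the gene of the inhibitor of the S-phase kinase, was higher in the hybrid in total. In total it had 61.8, 87.3 and 122 CPM (lowest, median, highest) in the hybrid, against 63.8, 76.2, 66.5 and 53.7 CPM in the co-culture. The means were 86.2 ± 18.6 CPM in the hybrid, against 65.0 ± 9.25 CPM in the co-culture, and the ranges overlap at the low end. The log2 fold of 0.36 (SE 0.16, interval 0.05 to 0.67, adjusted p = 0.0369) passed narrowly.

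The total call of SIC1 held under 11 of 19 alternatives. It was lost with DESeq2 (0.38, adjusted p = 0.0772) and without the read minimum (adjusted p = 0.0524). It was also lost without hybrid replicate 3 (adjusted p = 0.0522), 7 (0.0817) or 8 (0.0949), without co-culture replicate 3 (0.083) or 4 (0.111), and with the A-content trend removed (0.14, adjusted p = 0.466). A makes up 35.2% of the SIC1 coding sequence.

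The RM allele of SIC1 had 44.1, 90.5 and 134 CPM (lowest, median, highest) in the hybrid, against 77.0, 55.5, 49.8 and 37.3 CPM in the co-culture. The BY allele had 69.7, 78.6 and 105 CPM in the hybrid, against 48.7, 103, 88.3 and 73.5 CPM in the co-culture. The hybrid median of the RM allele lies above all 4 co-culture values, although the ranges overlap, while the BY values cover 1 range. The RM allele met the read minimum through its hybrid libraries alone (124 reads, against 67 in the co-culture), and the BY allele, with 104 hybrid and 100 co-culture reads, did not meet it. Both alleles are therefore given from the fit without the minimum, where the log2 fold was 0.86 for RM (SE 0.22, interval 0.43 to 1.30, adjusted p = 0.000577) and −0.13 for BY (SE 0.21, interval −0.54 to 0.29, adjusted p = 0.694).

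SIC1 differed between the haploid strains and not measurably between the alleles of the hybrid. The RM share was 54.4% (47.7 to 61.0) in the hybrid, against 40.1% (32.6 to 48.0) in the co-culture. The log2 ratio of RM over BY was 0.25 in the hybrid (SE 0.19, interval −0.14 to 0.63, adjusted p = 0.429) and −0.74 in the co-culture (SE 0.23, interval −1.19 to −0.29, adjusted p = 0.00434). RM was higher in 5 of 8 hybrid replicates and in 1 of 4 co-culture replicates.

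The difference of the SIC1 ratios was −0.99 (co-culture minus hybrid, SE 0.30, interval −1.58 to −0.40, adjusted p = 0.00759), of the opposite sign to that of CLN3. It was −0.77 (adjusted p = 0.0796) without hybrid replicate 8, −0.86 (adjusted p = 0.0977) without co-culture replicate 2 and −0.89 (adjusted p = 0.145) with DESeq2. Without co-culture replicate 2 the co-culture ratio was −0.62 (adjusted p = 0.123), and with DESeq2 −0.73 (adjusted p = 0.0833).

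CLB1, a mitotic cyclin gene, did not pass in total. It had 50.8, 86.2 and 114 CPM (lowest, median, highest) in the hybrid, against 123, 82.1, 71.4 and 95.2 CPM in the co-culture, a log2 fold of −0.06 (SE 0.15, interval −0.37 to 0.24, adjusted p = 0.74). In the co-culture the RM allele had 120, 70.8, 56.9 and 70.0 CPM and the BY allele 127, 98.8, 90.9 and 126 CPM. RM was lower in each of the 4, and in 4 of 8 hybrid replicates.

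The log2 ratio of RM over BY for CLB1 was −0.15 in the hybrid (SE 0.20, adjusted p = 0.663) and −0.55 in the co-culture (SE 0.20, interval −0.95 to −0.15, adjusted p = 0.0214). The co-culture call was lost without co-culture replicate 2 (−0.60, adjusted p = 0.0782), 3 (adjusted p = 0.0947) or 4 (adjusted p = 0.076), and with DESeq2 (adjusted p = 0.115). The difference of the ratios was −0.39 (co-culture minus hybrid, SE 0.29, interval −0.96 to 0.17, adjusted p = 0.357). CLB1 and CLB6 are neighbours that point at each other with 307 bases between their coding sequences, and whether reads were counted by strand is not given.

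Read across the 6 tested members, RM and BY differed for 1 member in the hybrid and for 4 between the haploids of the co-culture; these counts were not tested against each other. In the hybrid 1 of 6 passed (CLN1, RM lower), where 20.8% of gene pairs passed (10.3% with RM higher and 10.5% lower). In the co-culture 4 of 6 passed, CLN3 with RM higher and CLN1, SIC1 and CLB1 with RM lower, where the background was 40.9% (24.4% with RM higher and 16.5% lower). One allele was higher in every replicate in 0 of 6 members in the hybrid (background 11.2%) and in 4 of 6 in the co-culture (background 45.2%). The 4 were CLN1, CLN2, CLN3 and CLB1, so they include CLN2, which did not pass, and leave out SIC1, which did. Agreement of 4 co-culture replicates is easier to reach than that of 8 hybrid ones, so each count compares only with its own background. The difference of the ratios passed in 2 of 6, CLN3 and SIC1, against 20.9% of all 2661 gene pairs (14.1% with the larger and 6.84% with the smaller ratio in the co-culture), and the hybrid and co-culture ratios were separate in 1 of 6 (background 9.58%).

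The members' median log2 ratio was −0.07 in the hybrid, against −0.52 in the co-culture, beside −0.01 and 0.05 over all gene pairs. Of the BY alleles, 1 of 2 tested passed (CLN3, not overlapping), where 62.2% of gene pairs passed (31.9% higher and 30.3% lower in the hybrid) and 31.5% did not overlap. Of the RM alleles, SIC1 (up) and CLN3 (down) were tested and passed, where 56.1% passed (25% higher and 31% lower), and 0 of 2 were separate (background 30.1%); SIC1 was in this test through its higher group alone, so the count of 2 is no measure of the members. Without TMM scaling the split of all calls moved: the share of calls higher in the hybrid was 60.8% in place of 48.7% for totals and 62.6% in place of 44.6% for RM alleles. The share with RM higher in the co-culture was then 44.0% in place of 59.7%, and the share with the larger ratio in the co-culture 40.8% in place of 67.3%.

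**Figure D4:**
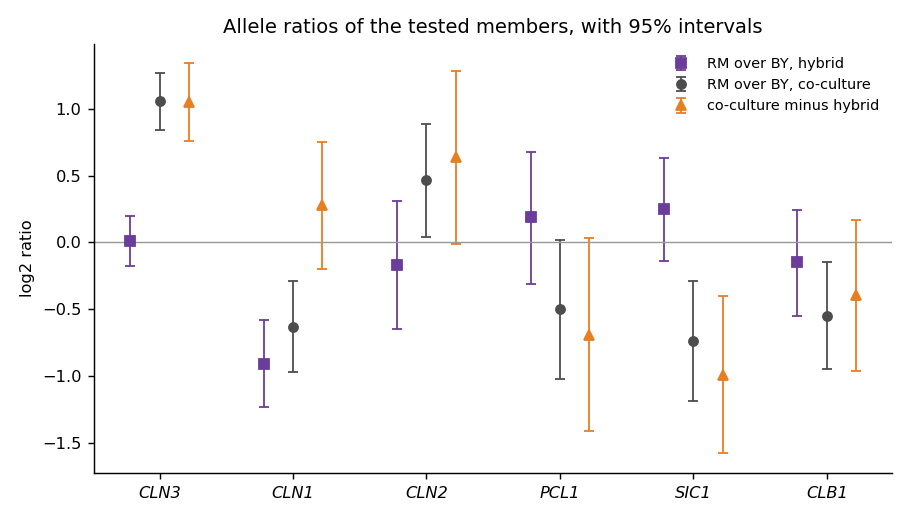
Log2 ratios of RM over BY in the hybrid (squares) and in the co-culture (circles), and their difference, co-culture minus hybrid (triangles), for the 6 tested genes, with 95% intervals (bars). CLN3 is at 0.01 in the hybrid, against 1.06 in the co-culture, CLN1 is below 0 in both, and SIC1 is at 0.25 in the hybrid, against −0.74 in the co-culture.

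Among 11 other cyclin, kinase and inhibitor genes, 9 were tested for the total of both alleles, of which 2 rose and 2 fell in the hybrid. Over all gene pairs 29.4% rose and 31% fell. FAR1, an inhibitor of Cln kinase used in the mating response, fell most (log2 fold −3.18, SE 0.08, adjusted p = 9.83e-79). PHO85, the kinase partner of Pcl1, fell by 0.67 on the log2 scale (adjusted p = 2.86e-07), whereas CDC28, the kinase itself, rose (0.34, adjusted p = 0.0141), as did the cyclin gene CLB3 (0.22, adjusted p = 0.0111). Without TMM scaling 3 of the 9 rose and 2 fell, and with DESeq2 1 rose and 2 fell. Between the haploids, RM was higher for CKS1, a subunit of the Cdc28 complex (0.90, adjusted p = 7.3e-05), and FAR1 (0.26), and lower for CLB4 (−0.60, adjusted p = 0.0207). Within the hybrid RM was higher for FAR1 (0.78, adjusted p = 4.07e-05) and PHO85 (0.52), and lower for CDC28 (−0.42, adjusted p = 0.0266). Over all gene pairs 10.3% were higher there and 10.5% lower, and with DESeq2 1 of the 9 was higher and 0 lower. CDC28 did not pass between the haploids (0.22, adjusted p = 0.325), and CKS1 and CLB4 did not pass within the hybrid. The ratio differed from that in the hybrid (co-culture minus hybrid) for CKS1 (0.85), CDC28 (0.64), CLB4 (−0.93) and FAR1 (−0.52). For that difference 2 were higher and 2 lower, where 14.1% of all gene pairs were higher and 6.84% lower. Without TMM scaling 0 were higher and 2 lower, and CKS1 and CDC28 did not pass. With DESeq2 the counts were 0 and 1. Over all gene pairs 584 and 288 of 2661 passed in these settings. Between the haploids 2 of the 9 were higher in RM and 1 was lower, where 24.4% of all gene pairs were higher and 16.5% lower. With DESeq2 0 of the 9 passed there, where 609 of 2661 gene pairs passed.

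Of 5 tested regulators of the G1/S switch, 2 rose and 2 fell in the hybrid, where 29.4% of all gene pairs rose and 31% fell. SWI6, the subunit shared by SBF and MBF, rose (0.46, adjusted p = 3.87e-05), as did BCK2, an activator that acts beside Cln3 (0.25, adjusted p = 0.00979). MSA1, a regulator that binds SBF and MBF (−0.35, adjusted p = 0.00251), and WHI3, an RNA-binding protein known to bind the CLN3 transcript (−0.19, adjusted p = 0.0325), fell. Without TMM scaling, and also with DESeq2, 2 of the 5 rose and 1 fell. Between the haploids RM was higher for WHI3 (0.34) and lower for SWI6 (−0.47), where 24.4% of all gene pairs were higher and 16.5% lower. Within the hybrid the RM allele of SWI4, the DNA-binding subunit of SBF, was lower (−0.72, adjusted p = 0.0239), where 10.5% of all gene pairs were lower. That call was lost with DESeq2, where 0 of the 5 passed within the hybrid and 347 of 2661 gene pairs did. Between the haploids 0 were higher and 3 lower in RM without TMM scaling, and 0 and 1 with DESeq2.

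Of 14 tested SBF and MBF targets other than the cyclins, 3 rose and 4 fell in the hybrid, with a median log2 fold of 0.10. Over all gene pairs 29.4% rose and 31% fell. RAD27, a flap nuclease of DNA replication (0.58, adjusted p = 1.12e-07), MNN1, a mannosyltransferase (0.42), and POL30, the replication clamp (0.28), rose. AXL2, needed for the axial budding of haploids (−1.52, adjusted p = 4.59e-28), SVS1 (−0.68, adjusted p = 8.83e-19) and CSI2 (−0.24) fell. Without TMM scaling 6 rose and 2 fell, and with DESeq2 1 rose and 2 fell.

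Between the haploids, 8 of 13 tested SBF and MBF targets were higher in RM and 1 was lower, where 24.4% of all gene pairs were higher and 16.5% lower, with a median log2 ratio of 0.35 beside 0.05 over all gene pairs. The leading ones were AXL2 (0.92, adjusted p = 9.56e-14), MNN1 (0.72) and SVS1 (0.63), and RAD27 was lower (−0.53). Without TMM scaling the counts were 4 higher and 2 lower, and with DESeq2 3 and 1, with medians of 0.24 and 0.31. Among the cyclin genes under SBF, CLN2 (0.47, not passed) had the sign of that median, and CLN1 (−0.63) and PCL1 (−0.50, not passed) the opposite one.

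Of 10 tested genes of the CLB2 cluster, which are transcribed with CLB1 at the entry to mitosis, 1 rose and 2 fell in the hybrid (3 and 2 without TMM scaling). Over all gene pairs 29.4% rose and 31% fell. MYO1, the myosin of the division ring, rose (0.48, adjusted p = 4.15e-08), and the bud-site gene BUD3 (−0.88) and the kinase gene ALK1 (−0.50) fell. Between the haploids 5 of 11 were higher in RM and 1 was lower (MYO1, −0.37), where 24.4% of all gene pairs were higher and 16.5% lower. Without TMM scaling or with DESeq2, 0 were higher and 1 was lower, where 1086 and 609 of 2661 gene pairs passed in either direction. FKH1, the one regulator of mitotic transcription tested, passed in 1 of the 6 comparisons, within the hybrid (RM over BY −0.44, adjusted p = 7.82e-05). Of 8 listed histone genes, taken as a sign of S phase, 3 were counted. HTB2 fell (−0.28, adjusted p = 2.56e-05), while HHF1 (−0.07, adjusted p = 0.214) and HTA2 (0.04, adjusted p = 0.598) did not pass. Between the haploids HHF1 was lower in RM (−0.54, adjusted p = 2.2e-25), and HTA2 and HTB2 did not pass. The 3 histone genes summed to 2350 to 2790 CPM in the hybrid, against 2700 to 2870 CPM in the co-culture. Their part in the cyclin values was not tested.

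Genes of the M/G1 border, when SIC1 and CLN3 are also transcribed, held the widest strain ratios among these lists. Of 10 tested, RM was higher in 2 and lower in 5 between the haploids, where 24.4% of all gene pairs were higher and 16.5% lower. Without TMM scaling or with DESeq2, 1 was higher and 5 were lower. The log2 ratios were −4.68 for DSE2, −4.67 for DSE1 and −3.81 for the chitinase gene CTS1, all of daughter-cell separation. Reads of DSE2 were 641 RM and 593 BY in the hybrid, against 54 RM and 1244 BY in the co-culture. The replication licensing gene MCM6 (0.64) and the daughter-cell repressor gene ASH1 (0.54) were higher in RM. In total 4 rose and 2 fell in the hybrid, where 29.4% of all gene pairs rose and 31% fell. The counts were 6 and 1 without TMM scaling, and 4 and 1 with DESeq2. MCM6 (0.74, adjusted p = 1.41e-10) and MCM7 (0.61) led the rises, and CTS1 fell (−0.42).

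Of 4 tested genes for destruction of cyclins and Sic1, 1 fell in the hybrid: CDC4, whose product binds marked Sic1 for ubiquitination (−0.44, adjusted p = 0.000185). Of 4 tested genes of mitotic exit, 1 fell: AMN1, an inhibitor of mitotic exit (−1.46, adjusted p = 1.33e-35). Beside both lists, 31% of all gene pairs fell and 29.4% rose. AMN1 was also lower in RM than in BY in the co-culture (−1.11, adjusted p = 1.12e-38), with 436 RM and 837 BY reads there.

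**Figure D5:**
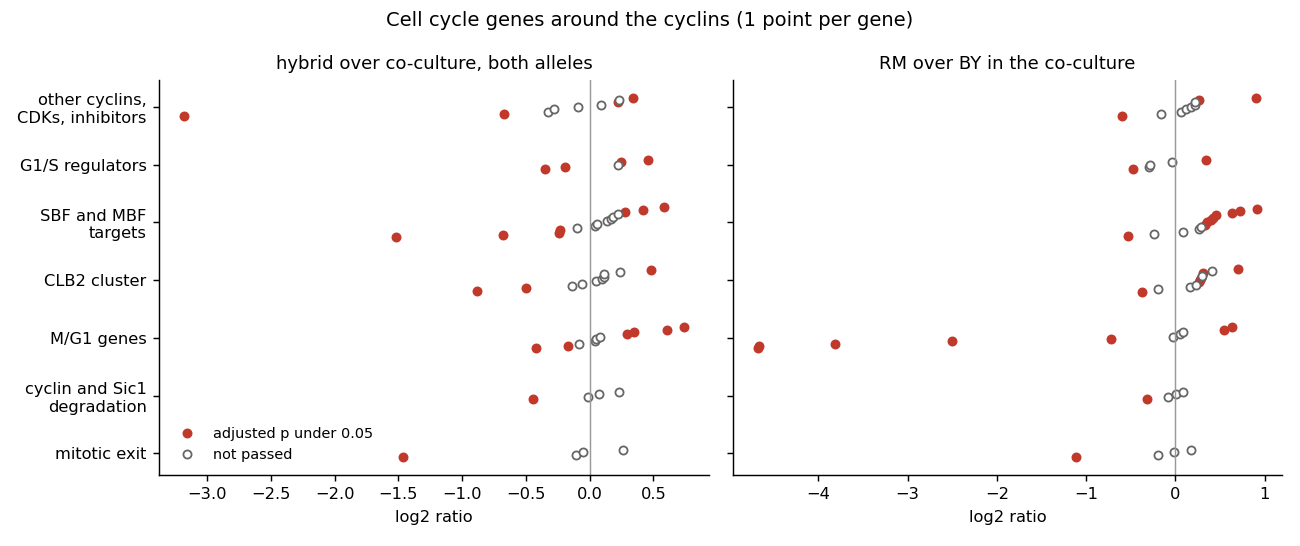
Log2 ratios of single genes (points) in 7 lists around the cyclins, for hybrid over co-culture (left) and RM over BY in the co-culture (right), filled where the adjusted p was under 0.05. FAR1 at −3.18 stands apart on the left, and DSE2, DSE1 and CTS1 at −4.68 to −3.81 on the right.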

How the data were processed

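Per the file headers, the deposited values are raw counts of reads on variant sites for each orthologous gene pair and allele, not normalised by the authors; the sources used here do not give the aligner, build or read filters. Members and lists were chosen with earlier results of these data known. Libraries of a group were summed by complete linkage into sets in which every pair had p of at least 0.05 in a chi-square of total counts (gene pairs with at least 20 reads); each group also held pairs with p under 0.001, as the rule required. Hybrid replicates were libraries 1; 2; 3 and 6; 4; 5; 7 and 8; 9; and 10 to 12; co-culture replicates were libraries 1; 2 to 6; 7, 8, 10 and 11; and 9 and 12. Counts were tested with the quasi-likelihood test of edgeR 4.0.16 (R 4.3.3, limma 3.58.1, TMM scaling), p-values adjusted by Benjamini-Hochberg, threshold 0.05. Totals and single alleles needed a mean of 10 reads per library in 1 group; ratios came from 1 fit over both alleles, blocked on the summed library, and needed 100 reads per group. The dispersion was 0.00185 for totals and 9.77e-05 for allele columns. DESeq2 1.42.0, other filters, scalings and units were alternatives, and the steps were tested on simulated data. All members were named, and of each list at most the 3 largest calls per direction. R64 locus tags matched 4325 gene pairs, and 117 did not match.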

Additional observations from a re-analysis of the deposited data

Results flagged for a closer look

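For CLN3 the log2 ratio of RM over BY differed between the kinds of culture by 1.05 (co-culture minus hybrid), and for SIC1 by −0.99, both by edgeR's test of the difference itself; 6 members were examined in this way. In 48 groups of replicate values, 2 held a value far from the others, where chance alone marks about 1 in 20 groups. The BY allele of CLN2 had 18.9 CPM in hybrid replicate 1, against 47.9 to 70.1 CPM in the other 7. That replicate is 1 library, and the allele had 75 reads over all hybrid libraries, so the value rests on few reads. The BY allele of CLB6 had 0.0 CPM in co-culture replicate 1, where 3 reads would be worth 29.2 CPM, against 15.8 to 17.2 CPM in the other 3.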

How the results depend on the processing

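The number of members called for totals was 2, and it was 3 without TMM scaling, 1 with DESeq2, 0 with a stricter filter that left 2 members in the test, and 0 to 2 when 1 replicate was left out (0 without co-culture replicate 3). In the hybrid the count for RM over BY was 1 in every alternative. In the co-culture it was 4, with 2 under DESeq2 and 1 to 4 with 1 replicate left out (1 without co-culture replicate 2). For the difference of the ratios it was 2, with 1 under DESeq2, 1 under the stricter filter, and 1 to 2 with 1 replicate left out. For BY alleles it was 1, with 2 (CLN3 and WHI5) without the read minimum. For RM alleles it was 2, with 3 (CLN2, CLN3 and SIC1) without the read minimum and 1 each without TMM scaling, with DESeq2, under the stricter filter and with the A-content trend removed, where the CLN3 RM fold turned to 0.01. DESeq2 called fewer gene pairs in all than edgeR: 347 against 554 in the hybrid, 609 against 1088 in the co-culture and 288 against 557 for the difference. The cause of these shifts was not tested. Units formed from allele columns, chosen after seeing the data, moved no member count. A replicate block on library numbers over 12 unsummed libraries a group gave 2 members for totals, 1 for BY and 2 for RM alleles, as without it. The numbers share no stated source, and deviations of same-numbered libraries correlated at −0.014 to 0.08 over 12 pairs, with 0 of 12 hybrid libraries closest to its own number. Depth limits WHI5, CLB6 and single alleles other than those of CLN3 most.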
